A study of Mus musculus with 18 samples.

Results

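The 10 genes described here mark the endoderm lineages of the early mouse embryo: Gata4, Gata6, Sox17, Sox7, Pdgfra, Dab2, Foxa2, Hnf4a, Afp and Cubn. They were taken by gene name from the 55469 genes with a usable value in the deposited tables, and each was found once. RNA-seq had been run on 18 libraries to ask how mouse pluripotent cells fare when the usual culture factors are replaced by lasting expression of the reprogramming factors OSKM, that is Oct4, Sox2, Klf4 with c-Myc. The embryonic stem cells (ESCs) were of 1 line, Tet-On-OSKM/Oct4-GFP, from a cross of (C57BL/6 x 129S4/SvJae)F1 with (CBA/CaJ X C57BL/6J)F2, which carries the reverse tetracycline activator in the Rosa26 locus, the doxycycline-inducible OSKM cassette in the Col1a1 locus and a GFP reporter driven by Oct4 regulatory sequence. OSKM-ESCs had been moved from 2iL to N2B27 with doxycycline (DOX), and 2iL-ESCs, which carried the same alleles, had stayed in 2iL, that is N2B27 with the MEK inhibitor PD0325901, the GSK3 inhibitor CHIR99021 and leukemia inhibitory factor. Each ESC group was sampled at days 18, 25 and 38 with 2 libraries per day, which gives 6 OSKM-ESC and 6 2iL-ESC libraries. Induced pluripotent stem cells (iPSCs) were reprogrammed from mouse embryonic fibroblasts (MEF cells) with the Tet-On-OSKM alleles, of the strain (C57BL/6 x 129S4/SvJae)F1. OSKM-iPSCs were clones 1 and 3 at passages 7 and 6 and were derived and kept in N2B27 with DOX. 2iL-iPSCs were clones 3 and 6 at passages 2 and 3. Their labels name N2B27 with DOX for daily culture while the study's methods describe 2iL with DOX withdrawn, so their medium at harvest is uncertain and every comparison with them carries that doubt. The MEF cells were 2 libraries at passage 4, grown in DMEM with serum. The pluripotent cells were grown on MEF feeder cells, whose RNA can enter a library. Nothing in the labels says that the libraries of a day came from separate cultures, so the spread between them may be technical.

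Primitive endoderm arises beside the epiblast in the blastocyst. Its commitment depends on FGF4 from epiblast precursors acting through FGF receptors and the MEK-ERK pathway, which PD0325901 blocks. GATA6 and GATA4 are its zinc-finger regulators, SOX17 and SOX7 its SRY-related factors, PDGFRA a receptor tyrosine kinase on its surface and DAB2 an endocytic adaptor. Its descendants are the parietal endoderm, which lays down basement membrane, and the visceral endoderm, in which the nuclear receptor HNF4A, the secreted protein alpha-fetoprotein (Afp) and the uptake receptor cubilin (Cubn) are made. Definitive endoderm forms later from the anterior primitive streak and uses FOXA2 and again SOX17. Several of these genes are not particular to endoderm, since Pdgfra and Dab2 are also made by fibroblasts and Pdgfra by mesoderm.

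Values are FPKM, fragment counts scaled to transcript length and library depth. At the depth of these libraries 0.1 FPKM corresponded to an average coverage of about 0.564 per base, and between 11303 and 12095 genes per library exceeded 1 FPKM. A value of 0 means that the gene was listed at 0. Levels below 1 FPKM are low, and in bulk RNA a gene used by few cells and a gene used weakly by all cells cannot be told apart. Nearly all values of the 10 genes were low: in the 16 pluripotent libraries 13 of 160 values exceeded 1 FPKM. They belonged to 4 genes, Foxa2, Sox17, Pdgfra and Dab2. The other 6 genes were at most 0.924 FPKM there.

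Foxa2, Pdgfra and Dab2 differed most between media in ESCs, and the windows just before their transcription starts are shown for that reason. They are from RefSeq on build GRCm38.p6, which held an entry for 6 of the 10 genes, and each ends before the start of the gene in the deposited tables. Foxa2 lies on the minus strand of chromosome 2 (gene ENSMUSG00000037025, 148042877 to 148046969), and its window is chr2:148046970-148047219. Pdgfra lies on the plus strand of chromosome 5 (ENSMUSG00000029231, 75152292 to 75198215), with the window chr5:75152001-75152250. Dab2 lies on the plus strand of chromosome 15 (ENSMUSG00000022150, 6299788 to 6440712), with the window chr15:6299539-6299787. All are written 5′ to 3′ on the strand of the gene, and capitals mark a match to any of 5 motifs searched on both strands.
Foxa2: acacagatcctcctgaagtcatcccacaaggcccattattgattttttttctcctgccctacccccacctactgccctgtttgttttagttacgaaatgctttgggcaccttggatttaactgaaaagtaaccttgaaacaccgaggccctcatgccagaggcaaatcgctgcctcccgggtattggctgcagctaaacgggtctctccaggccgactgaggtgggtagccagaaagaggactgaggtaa
Pdgfra: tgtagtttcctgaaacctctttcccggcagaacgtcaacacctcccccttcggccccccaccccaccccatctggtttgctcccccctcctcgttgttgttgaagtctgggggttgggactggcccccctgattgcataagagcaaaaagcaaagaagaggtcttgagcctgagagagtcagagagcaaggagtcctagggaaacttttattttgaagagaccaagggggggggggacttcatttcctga
Dab2: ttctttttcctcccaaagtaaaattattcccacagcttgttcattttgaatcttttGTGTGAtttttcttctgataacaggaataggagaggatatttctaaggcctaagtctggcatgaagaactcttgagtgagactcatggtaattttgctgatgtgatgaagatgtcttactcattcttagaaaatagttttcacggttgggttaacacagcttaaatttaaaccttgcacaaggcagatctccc
The motifs were AGATAA for GATA factors, TGTTTA for forkhead factors, ACAAAG for SOX factors, TCACAC for T-box factors and CTTTGA for TCF factors. They were found in 9.99%, 12.03%, 16.5%, 12.3% and 13.8% of the 32851 RefSeq windows of 250 bases. The single match in the windows shown was a T-box motif, read on the opposite strand, 194 bases before the Dab2 start. The windows of Foxa2 and Pdgfra held none of these letters, and their G and C content was 50.8% and 54.4% against a median of 52.4% over all windows.

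The first question was how the endoderm genes behaved in ESCs after the switch from 2iL to OSKM. Foxa2, the forkhead factor of anterior streak and definitive endoderm, stood out at day 38. In OSKM-ESCs it was at 0.576 and 0.762 FPKM on day 18, at 0.500 and 0 on day 25, and at 2.89 and 3.31 on day 38. In 2iL-ESCs it was listed at 0 in 5 of 6 libraries and at 0.0554 in the remaining library, of day 25. The 5 OSKM-ESC libraries with a value above 0 all lay above every 2iL-ESC library, and the sixth, of day 25, was at 0. Over all days the difference was 1.01 ± 0.24 on the log2(FPKM + 1) scale (SE, n = 6 per medium; adjusted p = 0.0042, limma across all genes). At day 38 it was 2.03 ± 0.12 (n = 2 per medium, adjusted p = 0.00013), and since both 2iL libraries were at 0 that size depends on the added 1. Without day 38 the difference was 0.50 and did not pass (adjusted p = 0.065, no filter on low values).

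Sox17, which acts in both endoderm lineages, was highest on day 38. OSKM-ESCs held 0.293 and 0.168 FPKM on day 18, 0.416 and 0.128 on day 25, and 1.19 and 2.35 on day 38. 2iL-ESCs ranged from 0.0658 to 0.510 with a median of 0.236. The groups overlapped through days 18 and 25, and both day 38 OSKM-ESC libraries lay above all others, though well apart from each other. The difference at day 38 was 1.22 ± 0.24 (SE, n = 2 per medium, adjusted p = 0.0076), and without replicate 2 of the day 38 2iL-ESCs it was 1.09 and missed the threshold (adjusted p = 0.074). Over all days it was 0.37 ± 0.21 (n = 6 per medium) and did not pass (adjusted p = 0.17). That fit had no interaction of day and medium, so the SE also held the change of the difference between days. In the annotation 16.8% of the exonic bases of Sox17 are shared with Gm37587 on the opposite strand. Gm37587 reached at most 0.0195 FPKM in the pluripotent libraries.

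Pdgfra, the PDGF receptor on primitive endoderm and mesoderm cells, followed the same course. It was at 0.121 and 0.274 FPKM on day 18, 0.285 and 0.205 on day 25, and 1.62 and 1.76 on day 38 in OSKM-ESCs. The 2iL-ESCs lay within 0.0796 and 0.127. Only the lower day 18 OSKM-ESC library fell within the 2iL range. At day 38 the difference was 1.30 ± 0.12 (SE, n = 2 per medium, adjusted p = 0.00056). Over all days it was 0.52 ± 0.18 (n = 6 per medium, adjusted p = 0.028). That call was lost with no filter (adjusted p = 0.056) and when any of the 4 day 38 libraries was left out (adjusted p from 0.069 to 0.071).

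Dab2, the adaptor protein, differed at every day. OSKM-ESCs held 1.15 and 1.49 FPKM on day 18, 2.21 and 2.12 on day 25, and 1.28 and 1.54 on day 38. The 2iL-ESCs held 0.152, 0.122, 0.183, 0.157, 0.0835 and 0.0598 in the same order. The groups did not overlap, and the means were 1.63 ± 0.436 and 0.126 ± 0.0471 FPKM (SD, n = 6). The difference was 1.21 ± 0.096 over all days (SE, adjusted p = 8.8e-07), and the exact permutation test within days gave its smallest possible 2-sided p of 0.0093 over 216 arrangements. By day it was 1.03 ± 0.16, 1.44 ± 0.13 and 1.17 ± 0.13, and each passed (adjusted p = 0.0031, 0.0011 and 0.0011), although the calls at days 18 and 38 were lost when the spread was estimated from all 9 groups (adjusted p = 0.11 and 0.073).

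**Figure D1:**
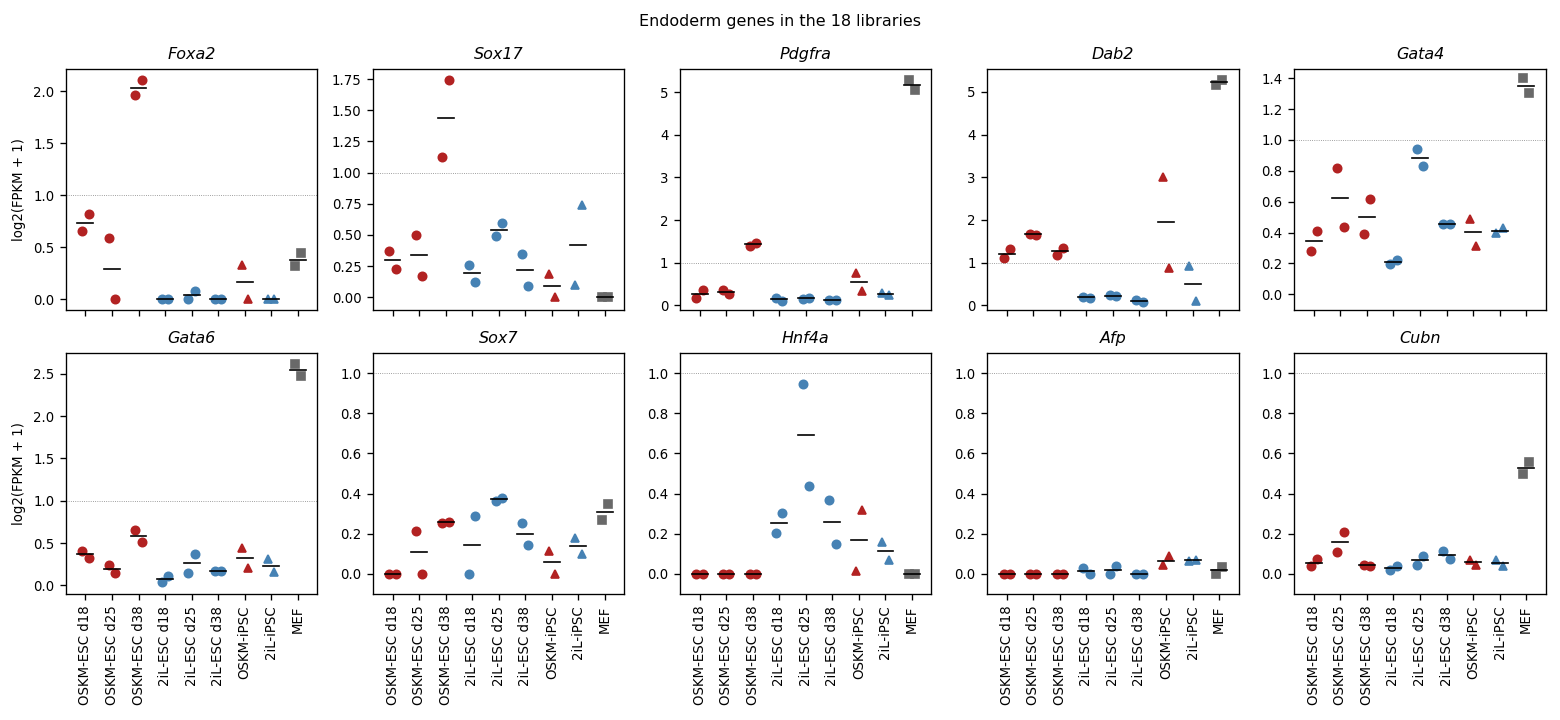
FPKM of the 10 endoderm genes on a log2(FPKM + 1) scale in each of the 18 libraries, by group, with a black bar at the mean of the 2 libraries and a dotted line at 1 FPKM. Each panel has its own vertical scale. Foxa2, Sox17 and Pdgfra peak in day 38 OSKM-ESCs among pluripotent cells, Dab2 is high in OSKM-ESCs of every day, and Pdgfra, Dab2, Gata4, Gata6 and Cubn are highest in MEF cells.

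The filter of 1 FPKM in at least 1 library let 4 of the 10 genes into this test, each of them only through OSKM-ESC libraries, so their number above 2iL says nothing by itself. The background is given for scale: over all days 29.5% of the 14016 genes tested were called higher and 24.4% lower in OSKM-ESCs. In the comparisons of single days, where Dab2 was the gene called on days 18 and 25 and all 4 on day 38, 25.7% of genes were called higher at day 18, 20.7% at day 25 and 34.6% at day 38, where 25.2% were called lower. Without a filter, 16.8% of 28161 genes were called higher and 13.9% lower over all days, and 19.5% were called higher at day 38. With all 10 genes in that test, Dab2 (adjusted p = 4.1e-06) and Foxa2 (adjusted p = 0.014) were called higher over all days and Hnf4a lower. Gata4, Gata6, Sox17, Sox7, Pdgfra, Afp and Cubn were not called.

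Hnf4a, the nuclear receptor of visceral endoderm and liver, was the gene called lower. It was listed at 0 in all 6 OSKM-ESC libraries. In 2iL-ESCs it was at 0.153 and 0.234 FPKM on day 18, 0.924 and 0.354 on day 25, and 0.289 and 0.110 on day 38. The groups did not overlap, and the exact permutation p was again the smallest possible, 0.0093. The change over all days was -0.40 on the log2(FPKM + 1) scale (adjusted p = 0.012 with no filter). No fold is given against a group at 0. In the iPSC clones Hnf4a was at 0.0115 and 0.247 FPKM with OSKM and at 0.115 and 0.0501 with 2iL, so the groups of clones overlapped, and it was at 0 in both MEF libraries.

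Gata6 and Gata4, the regulators at the head of the primitive endoderm program, stayed low in both media. Gata6 ranged from 0.103 to 0.569 FPKM in OSKM-ESCs (median 0.289) and from 0.0287 to 0.295 in 2iL-ESCs (median 0.117). The ranges overlapped over all days, and the exact permutation p was 0.056. On day 38 alone Gata6 was at 0.569 and 0.431 FPKM with OSKM against 0.123 and 0.126 with 2iL. The difference was 0.41 (adjusted p = 0.021 with no filter), where 19.5% of all genes were called higher. Day 18 gave 0.29 (adjusted p = 0.040), with no share of all genes given here. At day 25 the difference was -0.07 and was not called (adjusted p = 0.66). MEF cells held 5.13 and 4.58 FPKM of Gata6, and the part of fibroblast RNA in these differences was not tested.

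Gata4 ranged from 0.214 to 0.762 FPKM in OSKM-ESCs and from 0.145 to 0.916 in 2iL-ESCs, with an exact permutation p of 0.83. It varied with the day in 2iL-ESCs, at 0.145 and 0.167 FPKM on day 18, 0.916 and 0.776 on day 25, and 0.373 and 0.368 on day 38. That range of 0.67 between days was the only call among the 10 genes for days in 2iL-ESCs (adjusted p = 0.0097, no filter, where 21.3% of genes were called). With the filter of 1 FPKM none of the 10 genes could be tested there.

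Sox7, a partner of Sox17 in primitive endoderm, was at most 0.197 FPKM in OSKM-ESCs and 0.301 in 2iL-ESCs and was listed at 0 in 3 and 1 of 6 libraries (exact permutation p = 0.17). Afp, a product of visceral endoderm, was listed at 0 in all OSKM-ESCs and in 4 of 6 2iL-ESC libraries and was at most 0.0636 FPKM in any library. Cubn, the visceral endoderm uptake receptor, lay between 0.0148 and 0.154 FPKM in ESCs (exact permutation p = 0.52). None of Sox7, Afp and Cubn was called over all days with no filter, and a difference at these low levels may have been missed.

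The course over days was tested next. The effect of medium changed with day for Foxa2, Pdgfra and Sox17, whose differences between media spanned ranges of 1.78, 1.19 and 1.42 log2 units over the 3 days (adjusted p = 0.0012, 0.00050 and 0.0086, limma F test). For Dab2 the range was 0.41 and the test did not pass (adjusted p = 0.13). Among all genes 37.9% passed this test. Within OSKM-ESCs alone Foxa2, Pdgfra and Sox17 varied between days (adjusted p = 0.0031, 0.0034 and 0.015), as did 38.6% of all genes, and for Dab2 the adjusted p was 0.075. Sox17 was not called there with no filter (adjusted p = 0.069) or without replicate 2 of the day 38 OSKM-ESCs (adjusted p = 0.088). Day and the time since the medium was changed are the same thing in OSKM-ESCs, so day and passage cannot be told apart.

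**Figure D2:**
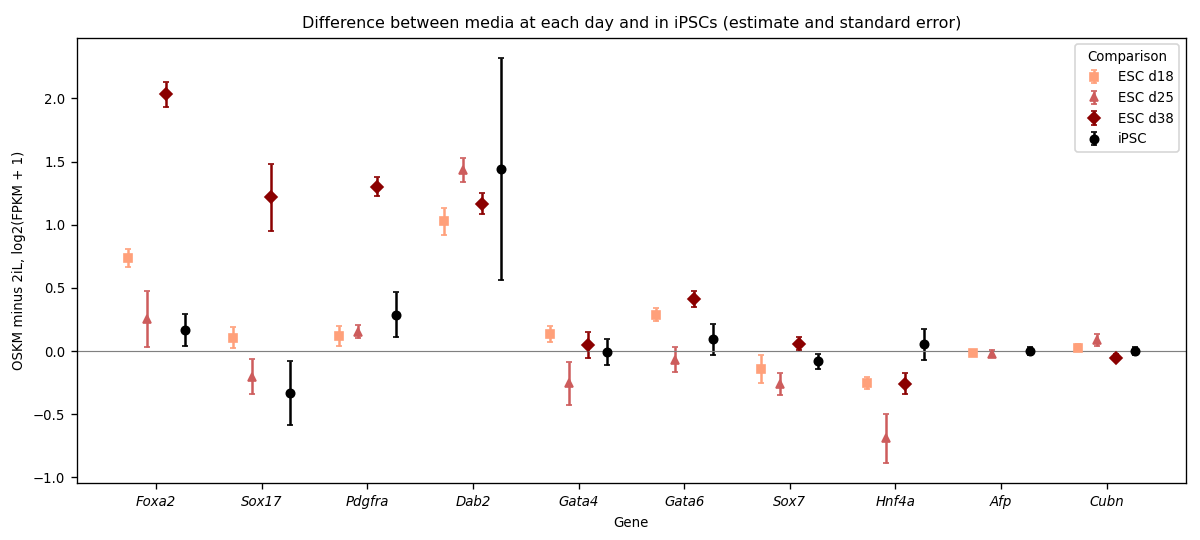
Difference between media (OSKM minus 2iL) of each endoderm gene on the log2(FPKM + 1) scale in ESCs at days 18, 25 and 38 and in iPSCs, with the standard error, from the fit with no filter on low values. Values above 0 are higher with OSKM. Foxa2, Sox17 and Pdgfra reach 2.03, 1.22 and 1.30 at day 38, Dab2 lies between 1.03 and 1.44 throughout, and Hnf4a lies below 0 at each ESC time point.

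The same days were then examined in 11 other genes of definitive endoderm and the anterior streak. At day 38, 8 of the 11 passed the filter, but Cer1, Cxcr4, Lhx1, Mixl1 and Shh did so only through OSKM-ESC libraries, which fixed their direction. With no filter all 11 were tested at day 38, and 8 were called higher in OSKM-ESCs and 1 lower, where 19.5% of all genes were called higher, with a median difference of 0.81 against 0.02 over all genes. Cer1, a secreted Nodal and Wnt antagonist, was at 2.05 and 2.35 FPKM in OSKM-ESCs of day 38 and listed at 0 in every 2iL-ESC library. Lhx1, an anterior streak homeobox factor, was at 2.76 and 2.23 FPKM and also at 0 in all 2iL-ESCs. Cxcr4, a chemokine receptor used to sort definitive endoderm, was at 3.75 and 2.86 against 0 and 0.383 FPKM (difference 1.86 ± 0.20, adjusted p = 0.00094). The other genes called higher with the filter were Mixl1, Eomes, Shh and Trh, and the gene called lower was Hhex, a homeobox factor of anterior endoderm. At day 25 the filter left 4 genes of the list, Trh, Gsc, Hhex and Eomes. All 4 were called lower in OSKM-ESCs, as were 3319 of the 13098 genes tested, and Gsc passed the filter only through 2iL-ESCs. With no filter 2 of the 11 were called lower and 1 higher, so the list as a whole had no common direction at that day. Over all days 6 of 9 tested were called, where 29.5% of all genes were called higher and 24.4% lower. Again Cer1, Cxcr4, Lhx1, Mixl1 and Shh passed the filter only through OSKM-ESC libraries, and Gsc only through 2iL-ESC libraries. Their direction was thus fixed, and the count says nothing by itself. Among the 6 called were Cer1 (0.82, adjusted p = 0.0059), Lhx1 (0.78, adjusted p = 0.012) and Cxcr4 (0.79, adjusted p = 0.033) higher. Gsc was called lower (-0.54, adjusted p = 0.037). The calls of Cxcr4 and Gsc were not firm. Each was lost in 7 of the 12 fits that left out 1 library, among them any of the 4 day 38 libraries for Cxcr4 (adjusted p from 0.075 to 0.082) and any of the 4 day 25 libraries for Gsc (adjusted p from 0.084 to 0.087), and each was lost with no filter (adjusted p = 0.083 and 0.079). The effect of medium depended on day for 8 of the 9, against 37.9% of all genes.

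Mesoderm markers moved with the same libraries. T (Brachyury), the T-box factor of the primitive streak, was at 34.3 and 48.9 FPKM on day 18, 13.8 and 13.3 on day 25, and 194 and 198 on day 38 in OSKM-ESCs. In 2iL-ESCs it lay between 1.18 and 6.35. The difference for T over all days was 3.61 ± 0.42 (SE, n = 6 per medium, adjusted p = 2.0e-05). Tbx6, a presomitic mesoderm factor, was at 14.8 and 13.3 FPKM on day 38 and at most 0.507 in the other ESC libraries. With no filter 6 of the 7 mesoderm markers were tested at day 38, and 3 were called higher and 1 lower, where 19.5% of all genes were called higher. With the filter Tbx6 and Mesp1 were tested only because OSKM-ESC libraries passed it. The summed level of the 7 markers reached 214 FPKM in OSKM-ESCs against at most 8.62 in 2iL-ESCs. Over all days Mesp1 was called higher (0.49, adjusted p = 0.013) and Myl7, an atrial myosin light chain, lower (-0.92, adjusted p = 9.0e-05). Hand1 and Tbx5 were at most 0.401 and 0.0540 FPKM in ESCs. The part of mesoderm cells in the Pdgfra values was not tested.

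The visceral endoderm list, 12 genes beside Hnf4a, Afp and Cubn, was mostly below 1 FPKM. Over all days 5 passed the filter and 3 were called, where 29.5% of all genes were called higher and 24.4% lower. Of the 3, Apom and Soat2 passed the filter only through 2iL-ESCs. With no filter 5 of 11 tested were called higher and 2 lower, against 16.8% and 13.9% of all genes. Lrp2 (megalin), the endocytic receptor that works with cubilin, was at 8.67 and 8.72 FPKM on day 18, 23.9 and 23.4 on day 25, and 8.32 and 8.71 on day 38 in OSKM-ESCs, and at 0.413 to 1.24 in 2iL-ESCs. Its difference was 2.83 ± 0.26 (adjusted p = 2.7e-06). Apom, an apolipoprotein (-1.11, adjusted p = 0.00069), and Soat2, a cholesterol acyltransferase (-0.93, adjusted p = 7.5e-06), were lower in OSKM-ESCs. Among the secreted products Ttr was listed at 0 in 11 of 12 ESC libraries and Apoa4 in all. Apoa1 was listed at 0 in 5 of 6 OSKM-ESC libraries and at 1.06 FPKM in the remaining library, of day 18, and was at most 0.178 in 2iL-ESCs. Apob and Rbp4 were at most 0.233 and 0.913 FPKM in OSKM-ESCs and 0.0606 and 0.665 in 2iL-ESCs.

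The parietal endoderm and basement membrane list, 12 genes, changed in both directions. Over all days 6 of the 11 tested were called higher and 3 lower, against 29.5% and 24.4% of all genes, and Col4a2, Plat and Pth1r passed the filter only through OSKM-ESC libraries. With no filter 7 of 12 were called higher and 3 lower, against 16.8% and 13.9% of all genes, with a median difference of 0.88. Fst, a secreted activin antagonist, showed the largest difference, 3.04 ± 0.30 (adjusted p = 5.0e-06), and like Foxa2 was highest on day 38 (40.2 and 41.7 FPKM against 7.60 to 16.2 at the earlier days). Lamb1, a laminin chain, differed by 2.30 (adjusted p = 4.9e-09), and the type IV collagen chains Col4a2 and Col4a1 by 1.60 (adjusted p = 2.2e-06) and 1.56 (adjusted p = 2.5e-08). MEF cells held 175 and 178 FPKM of Col4a1, so these matrix genes do not separate endoderm from fibroblasts.

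**Figure D3:**
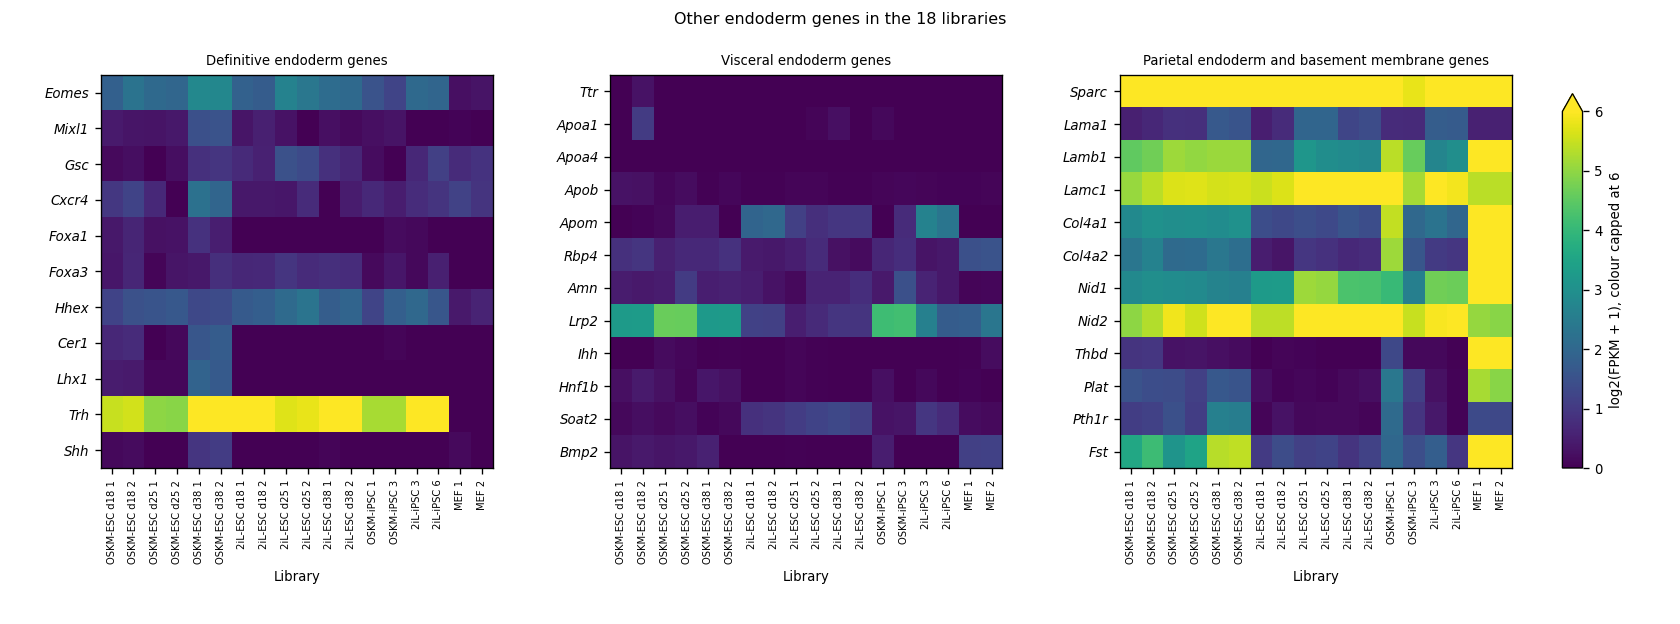
Expression, as log2(FPKM + 1) with the colour capped at 6, of the genes of the definitive, visceral and parietal endoderm lists (rows) in each of the 18 libraries (columns). In the definitive endoderm panel Cer1, Lhx1, Cxcr4, Mixl1 and Shh are highest in the 2 day 38 OSKM-ESC libraries, and in the visceral endoderm panel Lrp2 stands above its neighbours in OSKM-ESCs and OSKM-iPSCs.

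The FGF, PDGF and ERK genes upstream of primitive endoderm were higher in level, and all 14 were tested. Over all days 13 were called, 8 higher and 5 lower in OSKM-ESCs, against 29.5% and 24.4% of all genes. Fgf4, the ligand, was at 22.5 to 38.1 FPKM in OSKM-ESCs and 53.7 to 145 in 2iL-ESCs, and it fell by 1.59 on the log2 scale (adjusted p = 5.8e-06). Its receptor gene Fgfr2, which primitive endoderm precursors use, differed by 1.94 ± 0.16 in the other direction (adjusted p = 1.0e-06). Dusp4 and Dusp6, phosphatases that ERK signaling induces and that dampen it, differed by 3.36 (adjusted p = 3.0e-09) and 2.45 (adjusted p = 3.2e-09), and the ERK feedback inhibitor Spry4 by 1.90 (adjusted p = 3.1e-07). Dusp6 was at 29.5 to 41.3 FPKM in OSKM-ESCs and 5.01 to 6.68 in 2iL-ESCs, with no overlap. The ligand gene Pdgfa, unlike its receptor gene Pdgfra, was lower in OSKM-ESCs (-1.55, adjusted p = 7.6e-07).

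Among pluripotency markers 7 of 9 were called lower and 1 higher over all days, against 24.4% and 29.5% of all genes. Nanog, the epiblast factor that opposes Gata6, was at 22.4 to 55.0 FPKM in OSKM-ESCs and 199 to 283 in 2iL-ESCs (-2.70 ± 0.18, adjusted p = 2.5e-07). Esrrb (-2.51, adjusted p = 3.4e-07), Dppa5a (-2.35, adjusted p = 2.0e-07) and Zfp42 (-2.35, adjusted p = 5.7e-09) were lower as well. Pou5f1, which is also in the OSKM cassette, was at 586 to 810 against 596 to 843 FPKM and was not called (-0.01 ± 0.08, adjusted p = 0.94). Within OSKM-ESCs the libraries of day 38, where Foxa2, Sox17 and Pdgfra were highest, held more Nanog (52.6 and 55.0 FPKM) than those of days 18 and 25 (22.4 to 40.1). Esrrb was also higher on day 38. Pou5f1, Zfp42, Dppa5a, Utf1 and Fgf4 were lower on day 38 than on both earlier days, and Sox2 and Tdgf1 overlapped them. The summed level of the 9 markers was 1293 and 1303 FPKM on day 38, against 1648 to 1854 on day 18 and 1761 to 1927 on day 25.

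Fibroblast markers moved with the medium and have to be read beside Dab2, Pdgfra and Gata6. MEF cells express Dab2 at 34.9 and 37.8, Pdgfra at 38.1 and 32.1 and Gata6 at 5.13 and 4.58 FPKM. The summed level of 12 fibroblast markers (without Col1a1, the locus of the cassette) was 24.8 to 38.0 FPKM in OSKM-ESCs, 5.13 to 7.66 in 2iL-ESCs and 1315 to 1482 in MEF cells. Of the 9 markers tested over all days 8 were called higher in OSKM-ESCs, against 29.5% of all genes, and 5 of the 9 passed the filter only through OSKM-ESC libraries. With no filter 11 of 12 were called higher against 16.8% of all genes. The leading ones were Mmp2 (1.90, adjusted p = 9.2e-07), Col1a2 (1.76, adjusted p = 2.7e-08), Col3a1 (1.69, adjusted p = 4.0e-08) and Dcn (1.06, adjusted p = 3.3e-06). Expressed as a percentage of the MEF mean, the median marker was 2.54% and 2.87% on day 18, 1.44% and 1.74% on day 25, and 1.38% and 1.91% on day 38 in OSKM-ESCs. Dab2 was at 3.18% and 4.10%, then 6.07% and 5.83%, then 3.53% and 4.23%. Dab2 was thus highest on day 25 and the median marker on day 18. Of the 12 markers 8 had their highest mean on day 18, Lum on day 25, and Mmp2, Fbn1 and Pdgfrb on day 38. Pdgfrb, the other PDGF receptor gene, averaged 0.607, 0.314 and 1.88 FPKM on days 18, 25 and 38 in OSKM-ESCs, and Mmp2 averaged 5.34, 6.01 and 9.69. Pdgfra was at 0.345% to 0.812% of MEF on days 18 and 25, below the median marker in each library, and at 4.62% and 5.02% on day 38, above it. Foxa2 was at 0.244 and 0.362 FPKM in MEF cells, below its day 38 level, and Sox17 was listed at 0 there. Whether the marker transcripts came from fibroblasts or from the pluripotent cells was not tested. Nor was the part of fibroblast RNA in the Dab2 and Gata6 differences.

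**Figure D4:**
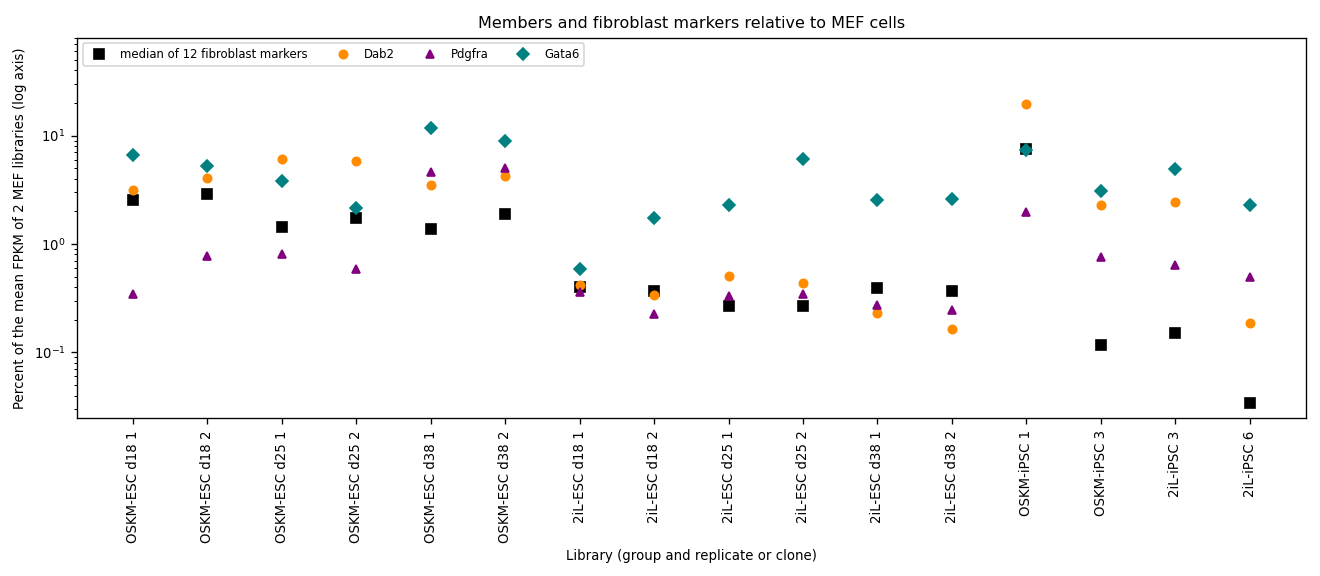
Level of Dab2, Pdgfra and Gata6 and the median of 12 fibroblast markers in each of the 16 pluripotent libraries, as a percentage of the mean FPKM of the 2 MEF libraries, on a log axis. Among OSKM-ESCs Pdgfra lies above the fibroblast median in both day 38 libraries and below it on days 18 and 25, over all 16 libraries it lies above in 7, and OSKM-iPSC clone 1 has the highest fibroblast median (7.57%) together with the highest Dab2 (19.5%).

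Endothelial markers were examined because Sox17 and Sox7 are also endothelial factors. Cdh5 and Emcn, which define that lineage, were at most 0.574 and 0.0292 FPKM in ESCs. Cdh5 was listed at 0 in all 6 2iL-ESC libraries. In OSKM-ESCs it was at 0.110 to 0.132 FPKM on day 18, 0 to 0.0874 on day 25 and 0.529 to 0.574 on day 38, so like Sox17 it was highest on day 38. The part of endothelial cells in the Sox17 values was not tested. Of the 7 markers 3 were tested over all days, where 29.5% of all genes were called higher and 24.4% lower. Tek was called higher in OSKM-ESCs (0.85, adjusted p = 0.0064). Pecam1 (-1.56, adjusted p = 1.9e-06), which ESCs also express, and Tie1 (-0.57, adjusted p = 0.00031) were called lower. Tie1 passed the filter only through 1 2iL-ESC library, at 1.02 FPKM, which fixed its direction.

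In iPSCs none of the 10 genes was called between media by limma, with or without the filter, nor did any reach an unadjusted p under 0.05. The question there was whether cells reprogrammed with OSKM alone expressed endoderm genes. Dab2 was the only one of the 10 genes over 1 FPKM, at 7.08 in OSKM-iPSC clone 1, 0.837 in clone 3, and 0.882 and 0.0672 in the 2iL-iPSC clones. The groups overlapped, and the difference of 1.44 ± 0.73 (SE, n = 2 clones each) did not pass (adjusted p = 0.25). Without OSKM-iPSC clone 3 it was 2.51 (adjusted p = 0.049), a comparison that rests on clone 1. That clone also had the highest fibroblast markers, with a sum of 103 FPKM against 7.98 in clone 3 and 2.60 to 4.67 in the 2iL-iPSCs. The part of fibroblast RNA in its Dab2 level was not tested. Among all genes 7.96% were called in iPSCs, and no gene was called without either 2iL-iPSC clone (1917 and 1880 at an unadjusted p under 0.05). Of the calls 62.8% were higher in OSKM-iPSCs, a split that became 49.4% under quantile normalization.

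Foxa2 was at 0.256 and 0 FPKM in OSKM-iPSCs and listed at 0 in both 2iL-iPSC clones. Sox17 was at 0.135 and 0 against 0.0715 and 0.674, and Pdgfra at 0.697 and 0.267 against 0.226 and 0.175. Foxa2, Pdgfra and Sox17 in all 4 clones lay below both day 38 OSKM-ESC libraries, but not below the earlier days. Pdgfra in OSKM-iPSC clone 1 lay above all OSKM-ESC libraries of days 18 and 25 (0.121 to 0.285). So did Sox17 in 2iL-iPSC clone 6 (0.128 to 0.416), and Foxa2 lay within their range. The effect of medium differed between iPSCs and ESCs for Foxa2 (-0.84 ± 0.21 for iPSCs minus ESCs, adjusted p = 0.024). The ESC side was the mean over the 3 days, of which day 38 alone gave 2.03. This test was passed by 14.2% of genes, 61.0% of them with a positive sign (48.0% under quantile normalization). The Foxa2 call was lost without 2iL-iPSC clone 3 or 6 (adjusted p = 0.060 and 0.065). For Sox17 (-0.70, adjusted p = 0.12), Pdgfra (-0.23, adjusted p = 0.40) and Dab2 (0.23, adjusted p = 0.82) it did not pass. The 2 kinds of cell differ in strain, passage and time in culture as well, which cannot be told apart from cell type.

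Among the other endoderm lists in iPSCs, Lrp2 was called higher with OSKM (16.7 and 17.1 FPKM against 5.12 and 2.38, a difference of 1.98 ± 0.32, adjusted p = 0.029) and Apom lower (-2.13, adjusted p = 0.029). Apom, and Myl7 named below, passed the filter only through the 2iL-iPSC clones, which fixed their direction. The Lrp2 call was lost when any 1 of the 4 clones was left out, the OSKM-iPSC clones included (adjusted p = 0.065 without clone 1 and 0.075 without clone 3). Lamb1 was called higher (2.14 ± 0.29, adjusted p = 0.021), as the only 1 of 12 genes in its list. Of the definitive endoderm list 4 were tested and 1 called, Trh, a neuropeptide precursor (-1.40, adjusted p = 0.016), where 7.96% of all genes were called. Cer1 reached at most 0.0568 FPKM and Lhx1 at most 0.0135 in the 4 clones. Myl7 was called lower (-1.79, adjusted p = 0.041), a call lost without OSKM-iPSC clone 1 (adjusted p = 0.074), and T was not called (0.07, adjusted p = 0.94).

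Upstream, Dusp4 (2.60, adjusted p = 0.018) and Fgfr2 (2.52, adjusted p = 0.015) were called higher and Fgf4 lower (-1.48, adjusted p = 0.041), each in the direction found in ESCs. Dusp4 passed the filter only through the OSKM-iPSC clones, which fixed its direction. Esrrb (-2.66, adjusted p = 0.023) and Nanog (-2.13, adjusted p = 0.012) were lower, and Pou5f1 was not called (-0.64, adjusted p = 0.078). None of the 10 fibroblast and 3 endothelial markers tested was called in iPSCs by limma, and 1 of each had an unadjusted p under 0.05. The 2 OSKM-iPSC clones lay far apart in the fibroblast markers.

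Against the MEF cells of origin 4 of the 10 genes could be tested, and Gata4, Gata6, Pdgfra and Dab2 were called lower in both kinds of iPSC. Gata6 was at 5.13 and 4.58 FPKM in MEF cells, 0.361 and 0.151 in OSKM-iPSCs and 0.240 and 0.112 in 2iL-iPSCs. Its change was -2.22 ± 0.18 in OSKM-iPSCs (adjusted p = 0.0020) and -2.32 ± 0.14 in 2iL-iPSCs (adjusted p = 0.00011). Gata4 was at 1.64 and 1.47 FPKM in MEF cells and changed by -0.95 (adjusted p = 0.014) and -0.94 (adjusted p = 0.0021). The changes were -4.62 (adjusted p = 0.0011) and -4.91 (adjusted p = 1.6e-05) for Pdgfra, and -3.28 (adjusted p = 0.022) and -4.72 (adjusted p = 0.00012) for Dab2. These 4 genes passed the filter through the MEF libraries, and 26.4% and 37.4% of all genes were called lower in the 2 comparisons. In the comparison with OSKM-iPSCs the median of all genes stood at 0.19 and moved to 0.02 under median-ratio scaling, and without either MEF library no gene of the whole table was called there (5832 and 5877 at an unadjusted p under 0.05).

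Likeness in profile was measured as Pearson's r of log2(FPKM + 1) over the 16 pluripotent libraries, among 12842 genes over 1 FPKM in at least 4 of them. It is a description, since the points share medium, day and clone. Foxa2 was most like Arg1 (0.98), Wnt5a (0.97) and Rftn1 (0.97), of which Arg1, an arginase gene, averaged 46.0 FPKM in day 38 OSKM-ESCs and 0.0213 in 2iL-ESCs. Pdgfra was most like Lrp4, Fabp7 and Nrarp (each 0.96 to 0.97), and Sox17 like Rgma (0.87), Tmem132c (0.87) and Atrip (0.85). Dab2 was most like Col4a1 (0.97), Rdh10 (0.96) and Samd4 (0.95), and Col4a1 in turn was highest in OSKM-iPSC clone 1 (42.4 FPKM). Between the members r was 0.91 for Foxa2 and Pdgfra, 0.82 for Foxa2 and Sox17, 0.78 for Sox17 and Pdgfra, and 0.37, 0.06 and 0.49 for Dab2 with Foxa2, Sox17 and Pdgfra.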

How the data were processed

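Poly(A) RNA of 18 mouse libraries had been sequenced from NEBNext Ultra libraries. Per the labels and the methods of the study, the authors aligned reads to GRCm38 with STAR 2.7.1a and deposited StringTie 2.0 gene tables, whose FPKM values are scaled to transcript length and library depth. Their second deposited column, mean coverage per base (a signal), served only to relate FPKM to depth. Of 55471 genes 2 had failed values and were left out. Strand use in counting is not given in the sources used here.

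Values were tested as log2(FPKM + 1) with limma 3.58.1 (empirical Bayes with trend, R 4.3.3) over genes above 1 FPKM in at least 1 compared library, with Benjamini-Hochberg adjustment over all genes and a threshold of 0.05, in 11 comparisons. Each comparison was fitted on its own groups. The comparison of ESC media over all days had terms for day and medium but not for their interaction. Its SE therefore also holds any change of the medium difference between days. Members also had 2-sided exact permutation tests within days. The steps were tested on simulated data whose changed genes were all well above 1 FPKM, so that test does not cover the low values described here. Pseudocount, filter, scaling, shared spread, replicate block and left-out libraries were varied. The 10 genes and the comparison lists were chosen with earlier results of these data known. Genes named from other lists were the 4 most changed among those called in ESCs and the 2 in iPSCs, plus Nanog, Pou5f1, Fgf4, Fgfr2 and the 3 genes most like a member. Others were named after their values were seen. Promoter windows came from RefSeq, and precision is limited by 2 libraries per group.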

Additional observations from a re-analysis of the deposited data

Results flagged for a closer look

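The effect of medium on Foxa2, Pdgfra and Sox17 in ESCs differed between days. The difference between media spanned 1.78 log2 units over the 3 days for Foxa2 (adjusted p = 0.0012), 1.19 for Pdgfra (adjusted p = 0.00050) and 1.42 for Sox17 (adjusted p = 0.0086), by limma with 2 libraries per medium and day, and in each case day 38 was the highest. The effect of medium on Foxa2 also differed between iPSCs and ESCs (mean of the 3 days), by -0.84 log2 units (adjusted p = 0.024), with the smaller effect in iPSCs. With a pseudocount of 0.1 that difference was -2.05 and was not called (adjusted p = 0.16).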

How the results depend on the processing

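Of 475 repeats of the members' differences under other settings, 438 kept their direction and call, 26 lost the call, 7 gained it and 4 reversed. Depth limits the 6 genes that stayed below 1 FPKM in pluripotent cells, and 2 libraries per group limit every test. Apart from which genes a filter let in, the cause of the following changes was not tested. The fit with 1 spread from all 9 groups used group means and applied the filter over all 18 libraries. Gata4 and Gata6, over 1 FPKM in MEF cells, thus entered it. It called 5 members over all days (3 in the main analysis) and 1 in iPSCs (0, Dab2, adjusted p = 0.030). For days in 2iL-ESCs it called 1 (0 in the main analysis, whose filter let in none of the members there). Restricting ESCs to days 18 and 25, chosen after seeing the data, left 1 member called, and with no filter gave -0.050 for Sox17 and 0.11 for Pou5f1 (0.11 with the filter too). Lowering the filter to 0.1 FPKM called 2 members at day 18, 2 at day 25 and 1 for days in 2iL-ESCs (main 1, 1 and 0). With no filter 4 were called at day 18. For days in 2iL-ESCs no filter called 1, and 21.3% of all genes. The main filter let in only Dab2 at days 18 and 25, so these counts include members it had left out. Shares of all genes under the other settings are not given here, so the counts say nothing by themselves. For medium by cell type, 0 members were called with a pseudocount of 0.1, where Dab2 was at -0.25, and 0 with a fold over 2 and an unadjusted p under 0.05 (main 1). Dab2 in OSKM-iPSCs against MEF cells was not called with no filter (adjusted p = 0.063).

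Leaving out 1 library gave 0 to 1 members called in iPSCs, 0 to 4 for OSKM-iPSCs against MEF cells and 0 to 2 for medium by cell type, where Dab2 (0.23) ran from -0.84 without OSKM-iPSC clone 1 to 1.30 without clone 3. There Dab2 was called without clone 3 (adjusted p = 0.0081), Pdgfra without OSKM-iPSC clone 1 (-0.45, adjusted p = 0.044) and Sox17 without 2iL-iPSC clone 3 (-1.02, adjusted p = 0.043). Pou5f1 over all days, which was not called under any of these settings, ran from -0.063 to 0.021 and was 0.083 under quantile normalization.

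Genes called, over the whole table, with a fold over 2 and an unadjusted p under 0.05 numbered 3378 over all days (main 7546), 3116 at day 18 (5546), 3141 at day 25 (6030), 3324 at day 38 (7865), 2114 for medium by day (5319), 1255 and 900 for days in OSKM-ESCs (5050) and 2iL-ESCs (6465), 2428 in iPSCs (1087) and 650 for medium by cell type (2079). With 1 spread they numbered 3086 for medium by day, 4122 for days in 2iL-ESCs and 6289 in iPSCs. With no filter they numbered 3316 for days in OSKM-ESCs and 0 in iPSCs (5014 at an unadjusted p under 0.05). Leaving out 1 library gave 2642 to 4171 at day 18, 2864 to 6792 at day 25, 1972 (without day 38 replicate 1) to 5608 for days in OSKM-ESCs, 4157 to 6170 for days in 2iL-ESCs, 0 to 2076 in iPSCs, 0 to 9775 and 7190 to 10144 for OSKM-iPSCs and 2iL-iPSCs against MEF cells, and 1406 to 3656 for medium by cell type.

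Same-numbered OSKM-ESC and 2iL-ESC libraries did not deviate together at every day (r = 0.20, 0.22 and -0.03 over 9833 genes). With 2 libraries per group this check can neither show nor exclude that the numbers pair the samples. With the replicate block 2 members were called over all days, since Pdgfra was not (adjusted p = 0.073), and 1, 1 and 4 at days 18, 25 and 38.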
